A study of Mus musculus with 173 samples.

Results

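A set of 10 widely used markers of neurons was followed through the tissues of a knock-in mouse of Huntington's disease: the neurofilament genes Nefl, Nefm, Nefh, Ina and Prph, the growth-associated genes Gap43 and Stmn2, the synaptic genes Snap25 and Syt1, and the ubiquitin hydrolase gene Uchl1. The members are defined by their symbols, and 10 of 10 were found among the 38561 genes of the deposited tables. Each was measured by polyA RNA sequencing in 173 libraries from 11 tissues of 16 C57BL/6 mice aged 6 months. The mutant animals were 8 heterozygous Q175 knock-in mice (4 females and 4 males), whose Htt allele carries a CAG repeat labelled with a length of 175, and the controls were 8 wild-type (WT) mice of the same sexes. Of the WT animals, 7 gave gonadal adipose and 6 gave skin. Library numbers such as WT female 2 count the libraries of 1 tissue, and the same number in another tissue need not be the same mouse. The labels state that the Q175 mice shared cages with heterozygous Q175 mice and the WT mice with heterozygous Q20 mice, whose animal codes the WT mice carry, although the series text calls the controls littermates. Genotype, housing and colony therefore cannot be told apart in any comparison. The 5 brain regions were brainstem, cerebellum, hippocampus, hypothalamus/thalamus and corpus callosum, and the 6 peripheral tissues were gastrocnemius muscle, heart, skin, brown adipose, gonadal white adipose and intestinal white adipose. No dissected nerve or ganglion was among the tissues, so peripheral values come from the nerve fibres and other cells within each organ, and the cell bodies of the neurons that innervate muscle, skin and fat mostly lie elsewhere.

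Neurofilaments are the intermediate filaments of neurons. A light subunit, Nefl, a medium subunit, Nefm, and a heavy subunit, Nefh, assemble together with alpha-internexin, encoded by Ina, and, in neurons that send axons to the periphery, with peripherin, encoded by Prph. The filaments fill large myelinated axons and set their calibre, and light-chain protein that reaches blood or cerebrospinal fluid is measured as a marker of axon damage, Huntington's disease included. Gap43 is a membrane-bound protein of growth cones and of plastic presynaptic terminals, and Stmn2 (SCG10) binds tubulin and is needed for axon maintenance and regrowth. Snap25 is a SNARE protein that drives fusion of synaptic vesicles, Syt1 is the vesicle's calcium sensor, and Uchl1 (PGP9.5) is an abundant neuronal enzyme that frees ubiquitin and is the usual stain for nerve fibres in skin and gut.

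The 5 filament genes have a common origin, which bears on whether their reads can be told apart. The stretch below encodes the conserved end of the central rod, the part of every intermediate filament protein that is most alike. It was read from GENCODE M21 transcripts on GRCm38, 27 coding bases each, with capitals at bases that differ from Nefl.
Nefl: tacagaaaactcttggaaggcgaagag
Nefm: tacagGaaactcCtAgaGggGgaagag
Nefh: tacagaaaGctcCtggaaggcgaagag
Ina: tacagGaaGctcCtggaaggTgaagag
Prph: tacagGaaGctACtggaaggGgaGgag
In Nefl (chr14:68086094-68086508, plus strand), Nefm (chr14:68121363-68122825, minus), Nefh (chr11:4941394-4943855, minus) and Ina (chr19:47021953-47023356, plus) this stretch is joined across an intron, between exons 2 and 3 except in Nefh, where it joins exons 3 and 4. In Prph it lies within exon 5 (chr15:99057447-99057473, plus). Nefm differed from Nefl at 5 of the 27 bases, Nefh at 2, Ina at 4 and Prph at 6. The longest run of identical bases shared by any of the 10 pairs of whole filament transcripts ranged from 13 to 35 bases. How the authors treated reads that match several genes is not given in the sources used here. Nefl and Nefm are neighbours on chromosome 14 (Nefl at 68083863 to 68089095 and Nefm at 68119545 to 68125004), and the other members lie on separate chromosomes. Uchl1 is on chromosome 5, the chromosome of Htt, with its start 31.9 Mb away from that of Htt.

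Ina, the most evenly distributed filament gene of the brain in these data, and Prph, the least evenly distributed, are shown by their promoters of 300 bases around the start of the RefSeq transcript (GRCm38.p6, plus strand, chr19:47014431-47014730 for Ina and chr15:99054924-99055223 for Prph). Capitals mark the GC box, GGGCGG, which reads CCGCCC where it lies on the minus strand, as each one does here.
Ina: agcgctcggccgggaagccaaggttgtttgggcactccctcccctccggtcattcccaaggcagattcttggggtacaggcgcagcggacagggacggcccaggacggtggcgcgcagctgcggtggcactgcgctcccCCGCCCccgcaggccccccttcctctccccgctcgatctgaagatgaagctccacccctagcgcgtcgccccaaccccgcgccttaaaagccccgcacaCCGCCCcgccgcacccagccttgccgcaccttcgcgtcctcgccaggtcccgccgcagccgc
Prph: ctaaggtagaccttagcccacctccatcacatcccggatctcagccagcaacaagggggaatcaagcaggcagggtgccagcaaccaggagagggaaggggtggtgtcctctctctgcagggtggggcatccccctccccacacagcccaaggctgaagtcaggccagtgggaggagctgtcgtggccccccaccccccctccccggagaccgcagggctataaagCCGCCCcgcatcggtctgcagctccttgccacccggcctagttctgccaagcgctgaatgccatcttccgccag
The Ina window holds 2 GC boxes and no TATAAA, and the Prph window holds 1 TATAAA and, downstream of it, 1 GC box; neither holds TGACGTCA. Among 32851 mouse promoters of the same length, 35.7% hold a GC box, 13.6% hold TATAAA and 1.79% hold TGACGTCA, on either strand. Promoter sequences were at hand for 4 of the 10 genes (Ina, Prph, Syt1 and Uchl1).

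Library totals ranged from 27978166 to 48018644 estimated counts, with a median of 35242642. Htt itself, the knocked-in gene, was lower in Q175 than in WT libraries in 11 of 11 tissues, by -0.58 to -0.11 on the log2 scale, and passed the test in 4 of them (edgeR, adjusted p under 0.05). Marker genes of the labelled tissue were present in brainstem, cerebellum, gastrocnemius and skin. The 32 other neuronal genes of a list were all above 1 CPM (a count scaled to a common library size) on average in brainstem and cerebellum. The sum of 11 skeletal muscle genes lay between 117300 and 167400 CPM in Q175 and between 124900 and 164400 CPM in WT gastrocnemius. That of 7 keratinocyte genes lay between 32750 and 40040 CPM in Q175 and between 12870 and 27400 CPM in WT skin. Its lowest values, 12870 and 17160 CPM, were those of WT males 1 and 2. These libraries also held 1060 and 998 CPM of 21 relatives and partners of the members, against 477 to 555 CPM in the other WT skin libraries. The sum of 7 adipocyte genes was as low as 1346 CPM in Q175 intestinal adipose, against at least 7057 CPM in Q175 gonadal adipose. In 18 libraries values fell with transcript length by more than 0.1 log2 units per doubling. Some of these, in brainstem, hippocampus and hypothalamus/thalamus, are named beside results they touch. The others are not named, so a result without such a mention may still include such a library. FPKM below is the deposited value, scaled by transcript length and sequencing depth, so levels of different genes can be compared on it. In pieces of tissue, fewer cells of a type and less RNA per cell cannot be told apart.

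Across tissues, the wild-type level of every member except Prph was higher in each of the 5 brain regions than in any peripheral tissue. Nefl was the filament transcript with the highest WT mean in 5 of 5 regions, at 427 ± 28.2 FPKM in brainstem (SD, n = 8 here and in the other WT brain means), 135 ± 4.74 in hippocampus, 117 ± 17.4 in hypothalamus/thalamus, 67.3 ± 5.10 in cerebellum and 37.3 ± 11.9 in corpus callosum. Nefm stood at 392.5 ± 25.96 FPKM in brainstem, 75.0 ± 19.5 in hypothalamus/thalamus, 56.3 ± 6.67 in cerebellum, 50.9 ± 2.06 in hippocampus and 15.8 ± 6.15 in corpus callosum. Nefh stood at 181 ± 15.96 FPKM in brainstem, 37.03 ± 10.5 in hypothalamus/thalamus, 33.7 ± 3.77 in cerebellum, 12.5 ± 0.939 in hippocampus and 6.18 ± 2.38 in corpus callosum. The heavy subunit spanned the widest range of these 3 within the brain, 29.35-fold between the highest and the lowest region, against 24.8-fold for Nefm and 11.4-fold for Nefl. Ina had the smallest range of the 5 filament genes, 4.42-fold, with 106 ± 4.90 FPKM in brainstem and 23.9 ± 6.63 in corpus callosum.

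Prph had a distribution of its own. Its WT level was 19.01 ± 5.06 FPKM in brainstem, the region that holds cranial motor neurons, and 3.05 ± 0.841 in hypothalamus/thalamus, but 0.579 ± 0.327 in corpus callosum, 0.440 ± 0.157 in hippocampus and 0.0914 ± 0.0304 in cerebellum, a 208-fold range. Prph in cerebellum, at 3 to 8 estimated counts per WT library, was at the level of peripheral organs and below intestinal adipose (0.750 ± 0.613 FPKM).

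The non-filament genes spanned 2.72-fold (Snap25) to 6.17-fold (Uchl1) between the highest and the lowest brain region. Snap25 was the most abundant member in every brain region, from 1494 ± 97.0 FPKM in brainstem to 549 ± 142 in corpus callosum. Gap43 peaked in hypothalamus/thalamus at 259 ± 33.1 FPKM, against 66.0 ± 20.9 in corpus callosum, its lowest region. Uchl1 peaked in the same region at 543 ± 75.6 FPKM and was lowest in cerebellum at 88.0 ± 7.17. Stmn2 peaked in cerebellum at 266 ± 14.6 FPKM and was lowest in corpus callosum at 64.6 ± 16.7. Syt1 was highest in hippocampus at 331 ± 9.96 FPKM and lowest in brainstem at 77.3 ± 9.63, the region where Nefl, Nefm and Nefh were highest. The contrast with the filaments was not general, as hippocampus came next after brainstem for Nefl (135 ± 4.74 FPKM).

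Which neighbours in these orders differ was tested within animals in the WT mice by exact sign-flip permutation tests on log2(FPKM + 0.1), two-sided, over 100 neighbouring pairs with Benjamini-Hochberg adjustment. With 8 animals the smallest possible p is 0.0078. Of the 100 pairs, 42 differed at an adjusted p under 0.05. For Nefl, brainstem lay above hippocampus in 8 of 8 animals (adjusted p = 0.0217), hypothalamus/thalamus above cerebellum and cerebellum above corpus callosum likewise, whereas hippocampus and hypothalamus/thalamus were not separated (adjusted p = 0.103, higher in 6 of 8 animals). Nefm in hypothalamus/thalamus, cerebellum and hippocampus did not differ between neighbours (adjusted p = 0.146 and 0.123 by the exact test), nor did Nefh in hypothalamus/thalamus and cerebellum (0.710). All 4 steps of Ina and of Snap25 within the brain passed. For Prph, brainstem differed from hypothalamus/thalamus and that from intestinal adipose (adjusted p = 0.0217 each, exact test), but intestinal adipose, corpus callosum and hippocampus were not separated from each other.

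**Figure D1:**
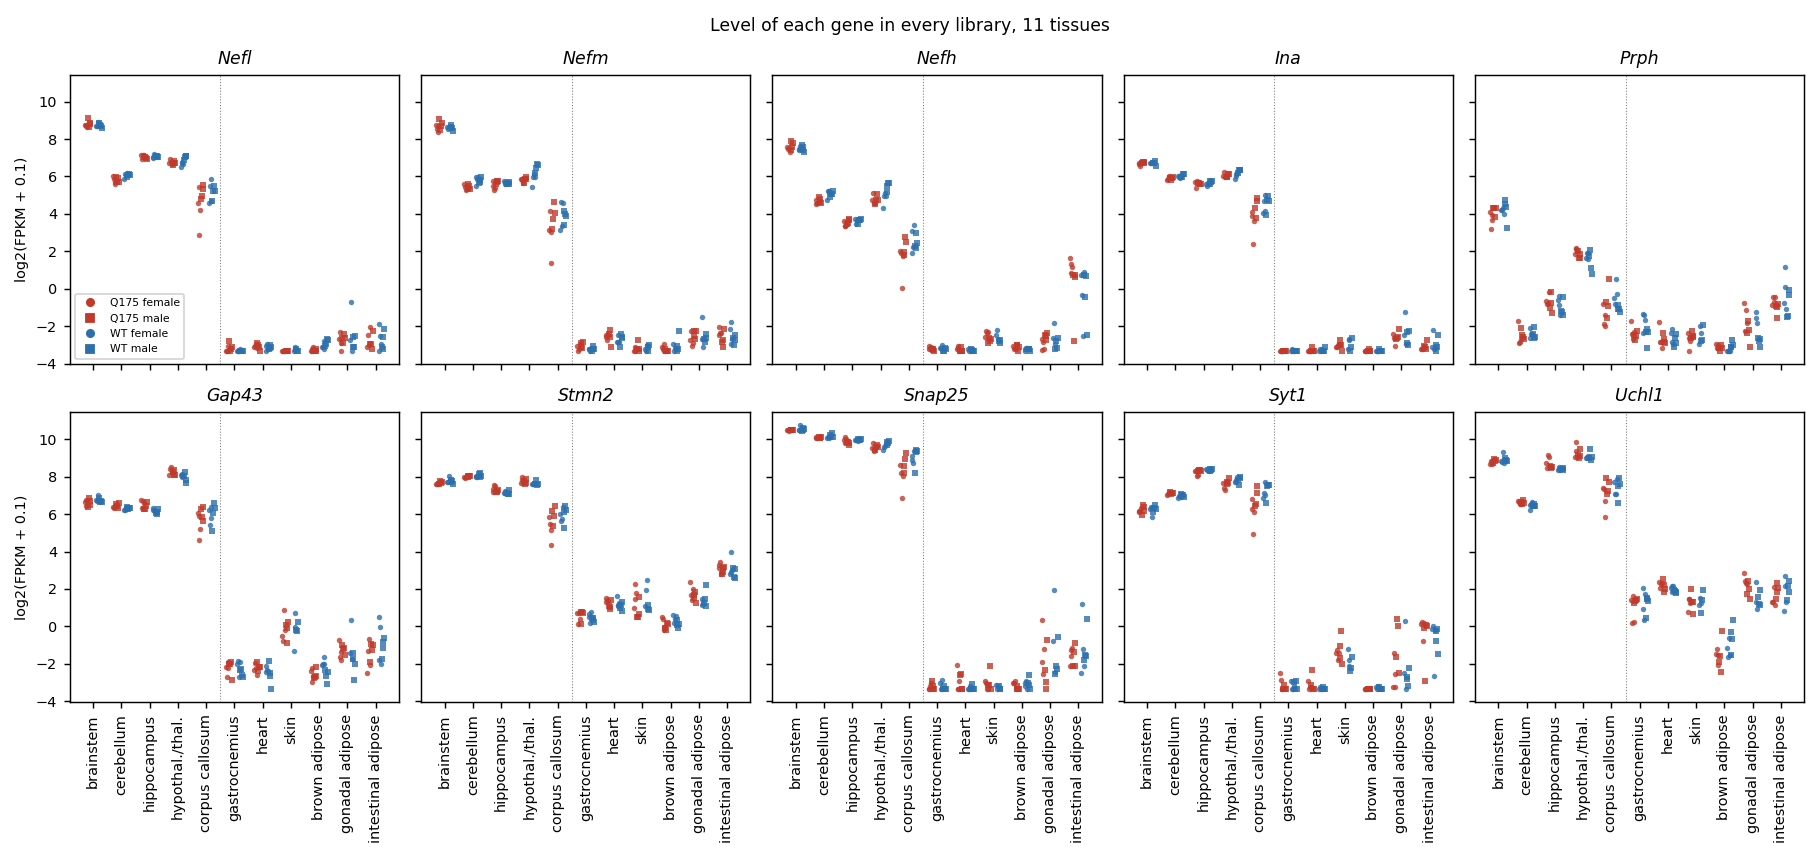
Level of each of the 10 genes as log2(FPKM + 0.1) in every library of 11 tissues, brain regions to the left of the dotted line; red, Q175, blue, WT, circles, females, squares, males. Brain and periphery are separated by wide gaps for Nefl, Nefm, Ina and Snap25, while Prph in cerebellum lies at the level of peripheral organs, and Nefh in most intestinal adipose libraries stands above every other peripheral value of that gene.

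The make-up of the filament pool also differed by region. In brainstem, Nefl, Nefm and Nefh supplied 37.9 ± 0.888%, 35.4 ± 1.41% and 16.3 ± 0.334% of the summed FPKM of the 5 filament genes in Q175 mice and 37.9 ± 0.851%, 34.9 ± 0.679% and 16.1 ± 0.423% in WT mice (SD, n = 8 each). Ina supplied 8.96 ± 1.03% there in Q175 and 9.41 ± 0.572% in WT mice. In cerebellum the order was another: Ina supplied 32.4 ± 2.604% in Q175 and 29.2 ± 2.27% in WT mice, more than Nefm in both genotypes. In hippocampus Nefl alone supplied 54.8 ± 2.24% in Q175 and 54.3 ± 1.11% in WT mice, and Nefh 4.67 ± 0.449% in Q175 and 5.02 ± 0.295% in WT mice.

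**Figure D2:**
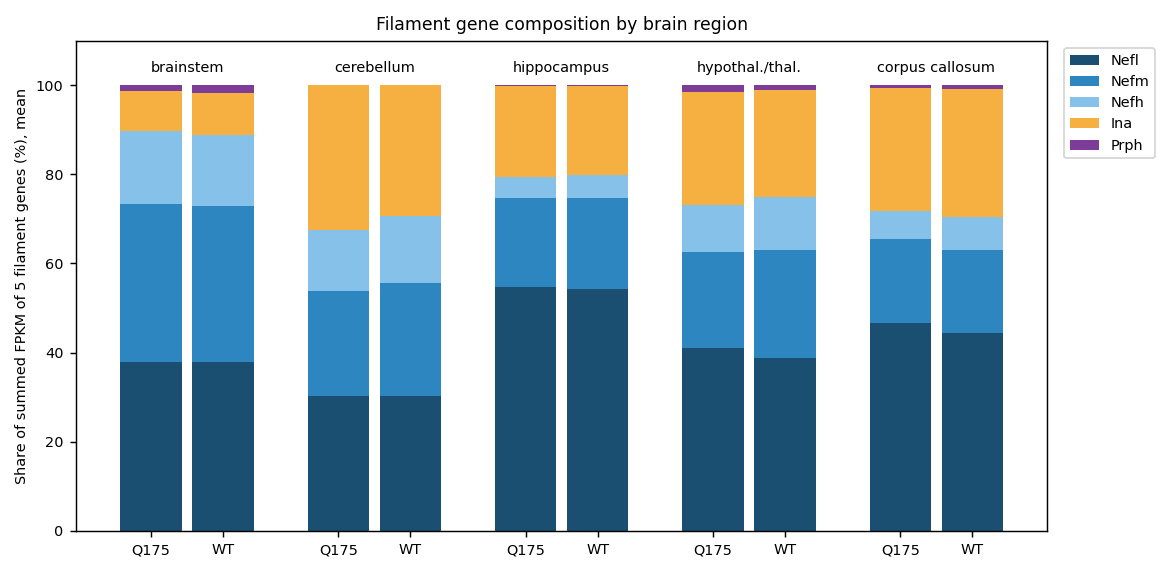
Mean share of Nefl, Nefm, Nefh, Ina and Prph in the summed FPKM of the 5 filament genes, in percent, for Q175 and WT libraries (n = 8 each) of each brain region. Nefl takes its largest share in hippocampus and Ina in cerebellum, and Q175 and WT bars of a region differ by a few percentage points.

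The question of the genotype comparison was which of these neuronal transcripts differ in Q175 tissue at 6 months. Each tissue was fitted with edgeR's quasi-likelihood test with sex as a covariate, and p-values were adjusted by Benjamini-Hochberg over all genes tested in that tissue. Of 110 gene and tissue pairs, 74 had enough counts to be tested, 49 of 50 in brain and 25 of 60 in the periphery. Of these, 8 passed, 7 of them in cerebellum and 1 in hippocampus. A member passing in cerebellum has to be read against the 16.1% of all 16020 genes that passed there, 8.11% lower and 7.94% higher in Q175, and the 1 member in hippocampus against 4.56% of 16298 genes. No member passed in brainstem (3.07% of all genes called), hypothalamus/thalamus (0.574%) or corpus callosum (0.0544%) with edgeR, where 2, 5 and 4 members had an unadjusted p under 0.05; DESeq2 called Nefm in hypothalamus/thalamus and none in the other 2 regions.

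**Figure D3:**
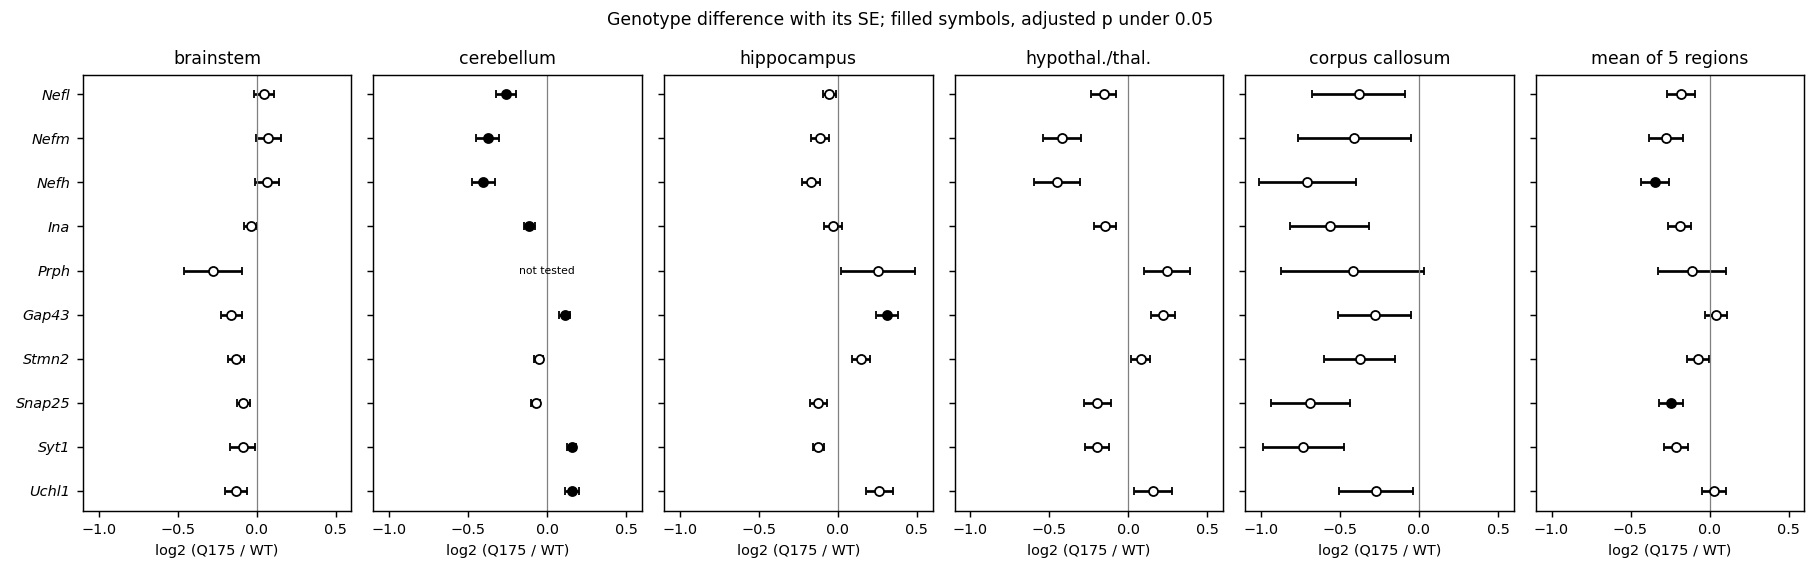
Difference in log2 (Q175/WT) with its SE for each gene in the 5 brain regions (edgeR) and for the mean of the 5 regions (limma voom); filled symbols have an adjusted p under 0.05. Filled symbols stand in cerebellum for 7 genes, in hippocampus for Gap43 and in the mean of regions for Nefh and Snap25, and the SEs are widest in corpus callosum.

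In cerebellum, the 4 tested filament genes fell and Gap43, Syt1 and Uchl1 rose in Q175 mice. Nefh had a lowest, median and highest value of 23.3, 24.6 and 30.1 FPKM in Q175 libraries, against 26.4, 34.6 and 37.4 FPKM in WT libraries. In all, 6 of 8 Q175 libraries lay below every WT library, and 7 of 8 WT libraries lay above every Q175 library. The log2 difference was -0.40 ± 0.07 (SE, edgeR, adjusted p = 0.000975). Nefm had 39.2, 43.4 and 48.3 FPKM in Q175 and 45.4, 57.7 and 63.5 FPKM in WT libraries, a difference of -0.38 ± 0.07 (adjusted p = 0.00201). Nefl had 47.6, 55.4 and 65.9 FPKM in Q175 and 58.1, 68.5 and 74.0 FPKM in WT libraries, a difference of -0.26 ± 0.06 (adjusted p = 0.0100). For both, 5 of the 8 Q175 libraries lay below all WT libraries. WT female 1, the lowest WT library for all 3 subunits, lay inside the Q175 range of both, and WT male 1 inside that of Nefl. Ina moved least, with 56.3, 59.7 and 64.4 FPKM in Q175 and 59.8, 64.3 and 69.3 FPKM in WT libraries (-0.11 ± 0.04, adjusted p = 0.0343). Prph, at 0.0362 to 0.200 FPKM in Q175 and 0.0604 to 0.142 FPKM in WT libraries, had too few counts for the test.

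Syt1 showed the clearest separation of the cerebellar genes that were higher in Q175 mice. It had 132, 138 and 147 FPKM in Q175 libraries, against 114, 125 and 133 FPKM in WT libraries, and 7 of the 8 Q175 libraries lay above every WT library. The log2 difference was 0.16 ± 0.03 (edgeR, adjusted p = 0.000589). Uchl1 had 91.9, 97.9 and 109 FPKM in Q175 and 74.8, 87.4 and 98.5 FPKM in WT libraries (0.16 ± 0.05, adjusted p = 0.0216). Gap43 had 81.0, 83.4 and 96.4 FPKM in Q175 and 74.7, 78.1 and 84.6 FPKM in WT libraries (0.11 ± 0.03, adjusted p = 0.0345). For each of these 2 genes, 4 Q175 libraries lay above all WT libraries. Snap25 (1057, 1084 and 1110 FPKM in Q175, 1063, 1124 and 1286 in WT; -0.07 ± 0.03, adjusted p = 0.0967) and Stmn2 (244, 257 and 265 FPKM in Q175, 251, 263 and 294 in WT; -0.055 ± 0.026, adjusted p = 0.166) did not pass. No member's Q175 and WT ranges were fully apart in cerebellum, where 3.36% of tested genes had ranges that did not overlap.

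The calls of Nefl, Nefm, Nefh, Syt1 and Uchl1 held without any single cerebellar library, with Nefh between -0.44 and -0.38 and Nefl between -0.29 and -0.23. The call of Nefl was lost with the replicate block (edgeR adjusted p = 0.0563). That block joins libraries by replicate number, and these numbers do not pair animals of the 2 genotypes. On log2(FPKM + 1) without a filter, the calls of Ina (limma adjusted p = 0.0629), Gap43 (0.0559) and Uchl1 (0.0590) were lost. With library code as a term, Ina (edgeR adjusted p = 0.0729) and Uchl1 (0.0521) were lost, and without the sex term Gap43 (0.0544). For that term, all library codes whose label lacks a D index were merged into a single level. The labels do not say that these libraries form a batch. The call of Ina was lost without any 1 of 9 libraries (Q175 females 1 and 2, Q175 males 1, 2 and 3, WT females 1 and 4, WT males 3 and 4), with a highest adjusted p of 0.0781 and differences between -0.14 and -0.10. The call of Gap43 was lost without any 1 of 8 (Q175 female 4, Q175 males 1 and 4, WT females 1, 2 and 4, WT males 2 and 4), with a highest adjusted p of 0.0772 and differences between 0.09 and 0.13.

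**Figure D4:**
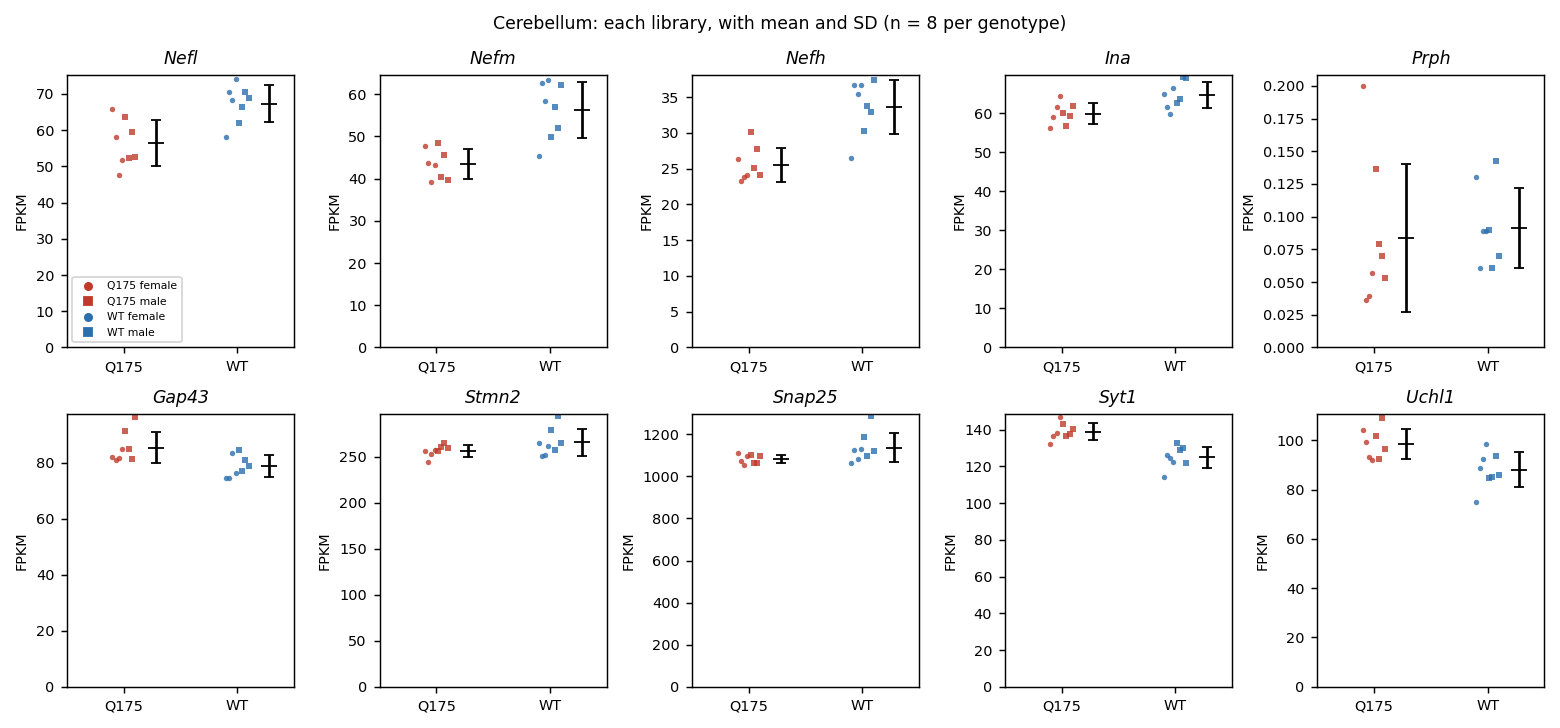
FPKM of each gene in the 16 cerebellar libraries, Q175 left and WT right, circles for females and squares for males, with the mean and SD beside the points; every axis starts at 0. The Q175 points of Nefl, Nefm and Nefh sit mostly below the WT points and those of Syt1 above them, with overlap in each panel.

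Other gene groups moved beside the filaments in cerebellum, where 16.1% of all 16020 genes were called (8.11% lower and 7.94% higher in Q175). Of 12 tested genes of a list chosen for large, fast-firing projection neurons, 5 fell and none rose. The list median was -0.12, beside -0.0049 for all tested genes. Those that fell were Pvalb, a calcium buffer of fast-spiking cells (-0.16 ± 0.02, edgeR adjusted p = 8.10e-06), Tuba4a, a tubulin (-0.21 ± 0.03, 1.30e-05), Kcnc1, a potassium channel of fast-firing neurons (-0.21 ± 0.03, 3.34e-05), Vamp1 and Scn4b. This list is not specific to neurons. Its summed level had medians of 17070 CPM in Q175 and 14930 CPM in WT corpus callosum, against 7751 and 7309 CPM in brainstem. In gastrocnemius the medians were 7218 CPM in Q175 and 8759 CPM in WT libraries. Of 14 oligodendrocyte genes 14 fell, among them Mal (-0.49 ± 0.04, edgeR adjusted p = 1.90e-07), Tspan2 (-0.29 ± 0.03, 2.05e-07) and Cldn11 (-0.41 ± 0.04, 1.06e-06), proteins of the myelin membrane. Their summed level was 3446 to 4672 CPM in Q175, against 4929 to 5931 CPM in WT libraries, which do not overlap; WT female 1, lowest in the filaments, was also the lowest WT library in this sum. Of 11 astrocyte genes 5 fell and none rose, led by the gap junction gene Gja1 (-0.23 ± 0.02), Agt (-0.34 ± 0.04) and the water channel gene Aqp4 (-0.20 ± 0.03), with a sum of 3735 to 3891 CPM in Q175, against 3840 to 4098 CPM in WT libraries. The part of these lists' differences in the filament differences was not tested. Of the 32 other neuronal genes, 8 rose and 9 fell, with a median of -0.01. The vesicle-fusion regulator Cplx2 (-0.23 ± 0.03, adjusted p = 7.45e-06) and the surface protein Thy1 (-0.17 ± 0.03, 9.72e-05) fell, and the RNA-binding protein gene Celf4 rose (0.16 ± 0.02, 0.000137).

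Relatives of the members were tested in cerebellum as well, beside the 16.1% of all 16020 genes called there (8.11% lower and 7.94% higher in Q175). In the wider filament family 3 of 11 tested genes fell and 1 rose: Des (desmin, the muscle filament, -0.50 ± 0.07, edgeR adjusted p = 5.62e-05) and Synm (synemin, -0.21 ± 0.05, 0.00639) fell, Lmnb2 fell, and the nuclear lamin gene Lmnb1 rose (0.17 ± 0.05, 0.0245). Among 21 relatives and partners of Gap43, Stmn2, Syt1, Snap25 and Uchl1, 2 rose and 4 fell. Marcks, like Gap43 a membrane-bound substrate of protein kinase C, rose by 0.71 ± 0.04 (adjusted p = 3.71e-11), more than any member, while Vamp1, the vesicle SNARE of fast synapses, fell (-0.29 ± 0.04, adjusted p = 7.23e-05) and Stmn1, the general stathmin, fell (-0.22 ± 0.03, 0.000160). Of 13 tested excitatory neuron genes 2 rose and 4 fell, led by the vesicular glutamate transporter Slc17a7 (-0.14 ± 0.02, edgeR adjusted p = 0.000282).

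In hippocampus Gap43 was the 1 member that passed. It had 75.95, 91.8 and 108 FPKM in Q175 libraries, against 63.9, 72.2 and 81.1 FPKM in WT libraries. In 5 Q175 libraries it lay above every WT library, and in 6 WT libraries below every Q175 library. Among these 5 are Q175 females 3 (105 FPKM) and 4 (97.6 FPKM), libraries whose values fell with transcript length. The Gap43 transcript, at 1417 bases, is shorter than that of every other member except Uchl1 (1056 bases). The log2 difference was 0.31 ± 0.07 (edgeR, adjusted p = 0.0173), and without any single library it stayed between 0.27 and 0.34 with an adjusted p of at most 0.0409. Leaving out 1 library at a time never removes both Q175 females 3 and 4. The Gap43 difference without both is not given here. Uchl1 had 357, 373 and 577 FPKM in Q175 and 327, 336 and 363 FPKM in WT libraries (0.26 ± 0.09, adjusted p = 0.1). In 6 of 8 Q175 libraries it exceeded every WT library, and 2 of these, Q175 females 3 and 4, are libraries whose values fell with transcript length, and Uchl1 has the shortest transcript of the 10. With that trend removed in every library the Uchl1 difference was 0.15 ± 0.03 and passed (adjusted p = 0.00816).

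Syt1 ran the other way in hippocampus than in cerebellum, with 262, 315 and 330 FPKM in Q175 and 314 (lowest), 332 and 344 FPKM in WT libraries (-0.12 ± 0.04, adjusted p = 0.0698). Snap25 had 835, 928 and 1099 FPKM in Q175 and 964, 1005 and 1051 FPKM in WT libraries (-0.12 ± 0.06, adjusted p = 0.207); without Q175 females 3 and 4 its difference was -0.19 ± 0.04 (adjusted p = 0.00443). Nefh had 10.05, 11.1 and 13.03 FPKM in Q175 and 10.9, 12.9 and 13.3 FPKM in WT libraries (-0.17 ± 0.06, adjusted p = 0.102). Leaving out 1 library brought Syt1 and Uchl1 (without Q175 female 2, adjusted p = 0.0373 and 0.0342), Snap25 (without Q175 female 3, 0.0322) or Nefh (without WT male 1, 0.0465) past the threshold. Nefl, Nefm and Ina had medians of 130.5, 50 and 49.6 FPKM in Q175 and 135, 51.5 and 49.3 FPKM in WT libraries.

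Of the 32 other neuronal genes 8 fell and none rose, with Camk2b (-0.32 ± 0.04, edgeR adjusted p = 0.000612), Sv2b (-0.28 ± 0.05, 0.00398) and Dnm1 (-0.20 ± 0.04, 0.00575) foremost, and the list median was -0.05 beside 0.01 for all tested genes. Each list count for hippocampus stands beside the 4.56% of all 16298 tested genes called there. Of 14 excitatory neuron genes 5 fell, among them Camk2a (-0.41 ± 0.05, edgeR adjusted p = 0.000476) and Wfs1 (-0.70 ± 0.10, 0.000817), the first a kinase of synaptic plasticity and the second a marker of CA1 pyramidal cells; Neurod6 fell by 0.42. Their summed level was 5516 to 6629 CPM in Q175, against 6861 to 7878 CPM in WT libraries. Of 13 tested genes of the list chosen for large projection neurons, which is not specific to neurons, 4 fell. Among them were the sodium channel subunit gene Scn4b (-0.75 ± 0.09, edgeR adjusted p = 0.000334), Kcna1 and Vamp1. The sum of this list was 3200 to 5254 CPM in Q175, against 4855 to 5132 CPM in WT libraries, with medians of 5078 and 5015 CPM. Its lowest values, 3200 and 3623 CPM, were those of Q175 females 3 and 4, whose values fell with transcript length. Among the relatives of the members, Marcks rose again (0.35 ± 0.07, adjusted p = 0.00733) and so did Stmn1 (0.36 ± 0.09, 0.0284), and the synaptotagmin gene Syt7 fell (-0.39 ± 0.06, 0.000900). The summed level of these relatives was highest in the same Q175 females 3 and 4, at 4556 and 4293 CPM. The sum of the 14 oligodendrocyte genes in hippocampus was 3523 to 6088 CPM in Q175, against 3575 to 5734 CPM in WT libraries.

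In hypothalamus/thalamus no filament gene passed the test, with differences below 0 for Nefl, Nefm, Nefh and Ina and above 0 for Prph (0.25 ± 0.14, edgeR adjusted p = 0.462), which had 2.97, 3.75 and 4.43 FPKM in Q175 and 1.63, 3.15 and 4.09 FPKM in WT libraries. Nefm had 49.4, 58.3 and 62.9 FPKM in Q175 and 44.02, 72.2 and 102.9 FPKM in WT libraries (-0.42 ± 0.12, edgeR adjusted p = 0.153). Nefh had 23, 26.4 and 34.1 FPKM in Q175 and 20.2, 34.9 and 50.3 FPKM in WT libraries (-0.45 ± 0.14, adjusted p = 0.197). The Q175 values lie wholly inside the WT range for both genes, because WT female 1 was the lowest of all 16 libraries and WT males 3 and 4 the highest. Without WT female 1, Nefm passed (-0.50 ± 0.10, adjusted p = 0.0234), and DESeq2 on all libraries called it too (adjusted p = 0.0345). The same WT males 3 and 4 had the lowest Prph, 2.08 and 1.63 FPKM, and the lowest Gap43, 223 and 203 FPKM, of the 16 libraries. The oligodendrocyte sum moved with this spread: it was 5234 to 6904 CPM in Q175, against 6413 to 11790 CPM in WT libraries. It was 11650 and 11790 CPM in WT males 3 and 4 and 6413 CPM in WT female 1. Of the 14 oligodendrocyte genes 7 fell, beside 0.574% of all genes called in this region. The part of the oligodendrocyte sum in the filament differences was not tested. Gap43 had 270, 305 and 370 FPKM in Q175 and 203, 262 and 306 FPKM in WT libraries (0.22 ± 0.08, adjusted p = 0.232). Values fell with transcript length in Q175 females 2 and 3, Q175 male 3 and WT male 2, and the highest Uchl1 values of the region, 910 and 722 FPKM, were those of Q175 female 2 and WT male 2; without the 4 libraries the Uchl1 difference was 0.01 ± 0.04 instead of 0.15 ± 0.12.

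Brainstem, where the filaments are most abundant, showed no called member. Nefl had 398.5, 436.5 and 549 FPKM in Q175 and 391.6, 419 and 478 FPKM in WT libraries (0.04 ± 0.06), and Nefh 161, 188 and 239.5 FPKM in Q175 and 157.5, 177 and 204 FPKM in WT libraries (0.07 ± 0.08). Nefm differed by 0.07 ± 0.08, and for these 3 genes the difference was smaller than its SE. The groups overlapped throughout, and Q175 male 1 held the highest value of each; without it the Nefl difference was -0.01. The lowest adjusted p in brainstem was that of Stmn2 (-0.13 ± 0.05, edgeR adjusted p = 0.224), with 192, 197.5 and 215 FPKM in Q175 and 197.5, 210.4 and 260.3 FPKM in WT libraries; the highest of these, WT female 3, is a library whose values fell with transcript length. Prph had 9.12, 16.05 and 20.1 FPKM in Q175 and 9.41, 19.1 and 26.4 FPKM in WT libraries (-0.28 ± 0.18, adjusted p = 0.497). Of the 14 oligodendrocyte genes 7 fell here as well, beside 3.07% of all genes called. Their summed level was 14400 to 19400 CPM in Q175, against 18070 to 24040 CPM in WT libraries. The part of this sum in the filament values was not tested.

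In corpus callosum, a fibre tract, all 10 members were lower in Q175 mice on average and none passed. Syt1 had 30.02, 88.0 and 184 FPKM in Q175 and 97.0, 158 and 210 FPKM in WT libraries (-0.73 ± 0.26, edgeR adjusted p = 0.219). Snap25 had 114.5, 340.4 and 619 FPKM in Q175 and 291, 601 and 694 FPKM in WT libraries (-0.69 ± 0.25, adjusted p = 0.219). Nefh had 0.935, 3.75 and 6.81 FPKM in Q175 and 3.67, 5.08 and 10.4 FPKM in WT libraries (-0.71 ± 0.31, adjusted p = 0.242). Q175 female 3 was the lowest of the 16 libraries for all 10 members. The spread within each genotype was wide, and the summed level of 14 excitatory neuron genes moved with it, at 433 to 2687 CPM in Q175, against 1340 to 3473 CPM in WT libraries, and Q175 female 3 held the 433. With the log of this sum as a term in the fit, the differences were -0.17 ± 0.14 for Syt1, -0.18 ± 0.16 for Snap25 and -0.12 ± 0.24 for Nefh, and the differences of the other 7 members were above 0. The sum is itself made of neuronal transcripts of the same libraries, with a median of 1370 CPM in Q175 and 2148 CPM in WT libraries. This fit therefore cannot show why the members differ, and the part of neuron content in the differences was not tested. The sum over meningeal genes lay between 69.8 and 932 CPM in Q175 libraries, with 746 CPM in Q175 female 3 and 932 CPM in Q175 male 1, and between 76.2 and 145 CPM in WT libraries; its part in the results was not tested. The sum of the 14 oligodendrocyte genes lay between 41050 and 70550 CPM in Q175 and between 33520 and 73890 CPM in WT libraries.

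**Figure D5:**
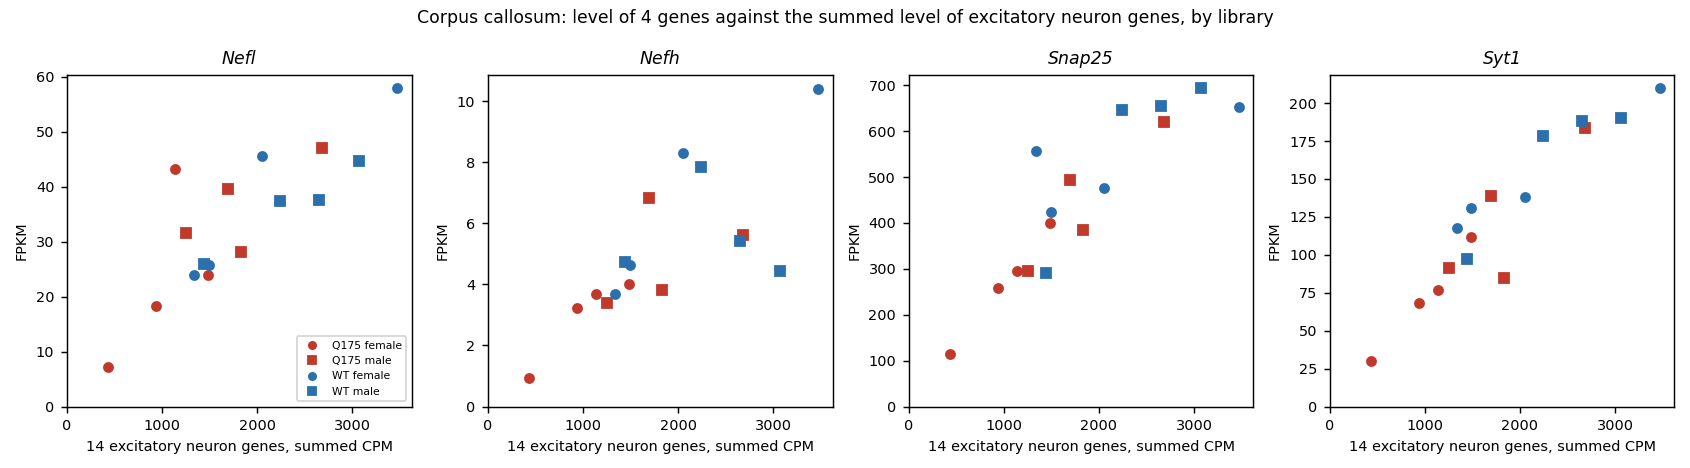
FPKM of Nefl, Nefh, Snap25 and Syt1 in each corpus callosum library against the summed CPM of 14 excitatory neuron genes in that library; red, Q175, blue, WT, circles, females, squares, males. Libraries with a larger sum tend to have higher values, with exceptions in both genotypes. WT male 3 (sum 3068 CPM) has 4.43 FPKM of Nefh, against 8.31 FPKM in WT female 2 (2051 CPM). Q175 male 1 (1831 CPM) has 28.1 FPKM of Nefl, against 43.2 FPKM in Q175 female 2 (1135 CPM). Q175 female 3 lies at the lower left in each panel.

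A joint fit of the 80 brain libraries (limma voom, with the libraries of 1 animal treated as correlated) asked for the mean difference over the 5 regions. Nefh was lower in Q175 mice by -0.34 ± 0.09 (adjusted p = 0.00828) and Snap25 by -0.24 ± 0.08 (adjusted p = 0.0380); these are 2 of 10 members, beside 6.78% of 18153 genes called. Without corpus callosum the Snap25 difference was -0.12 ± 0.03 (adjusted p = 0.0124) and that of Nefh -0.24 ± 0.06 (0.00589), and Nefm joined them (-0.21 ± 0.06, adjusted p = 0.00944). Nefh passed without any single animal (adjusted p at most 0.0302), while Snap25 was lost without any 1 of 9 of the 16 animals (highest adjusted p = 0.0918), those with codes 02 and 06 (males) and 10 (female) among the Q175 mice and 01, 05 and 07 (males) and 03, 05 and 09 (females) among the WT mice. The mean differences of Syt1 (-0.21 ± 0.08, adjusted p = 0.0718), Nefm (-0.27 ± 0.11, 0.111), Ina (-0.19 ± 0.08, 0.115) and Nefl (-0.18 ± 0.09, 0.234) did not pass, and those of Prph, Gap43, Stmn2 and Uchl1 lay between -0.11 and 0.04.

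Whether the difference itself varied between regions was tested in the same fit. It did for Syt1 (adjusted p = 0.00355) and Snap25 (adjusted p = 0.0431), beside 14.1% of all genes, and Gap43 narrowly missed (adjusted p = 0.0507). Syt1 was higher in Q175 cerebellum and lower in the Q175 samples of the other 4 regions, by -0.09 in brainstem to -0.73 in corpus callosum, and it passed without corpus callosum (adjusted p = 0.00943) and without any single animal (at most 0.0189). Snap25 no longer passed without corpus callosum (adjusted p = 0.478) or without any 1 of 11 animals (highest adjusted p = 0.134), those with codes 02 and 06 among the Q175 males, 04, 08 and 10 among the Q175 females, 01, 05 and 07 among the WT males and 03, 05 and 09 among the WT females. The number of members that passed ranged from 1 to 7 without 1 animal, with 7 without the Q175 male of code 10, 6 without the WT male of code 03 and 4 without the Q175 male of code 04. Without corpus callosum 5 members passed: Gap43 (limma voom adjusted p = 0.00136), Syt1, Stmn2 (0.0164), Nefm (0.0209) and Nefh (0.0235). The shares of all genes that passed without corpus callosum or without 1 animal are not given here. These counts therefore cannot be read as particular to the members. For Gap43 the 4 remaining differences were -0.16 in brainstem, 0.11 in cerebellum, 0.31 in hippocampus and 0.22 in hypothalamus/thalamus, and for Nefh 0.07, -0.40, -0.17 and -0.45 in the same order.

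Within the filament pool, the log2 ratios of Nefm, Nefh and Ina to Nefl were compared in the 5 regions by exact two-sided permutation tests over libraries, 15 tests with Benjamini-Hochberg adjustment. None passed, and 4 had an unadjusted p under 0.05. The log2 of Nefm to Nefl in hypothalamus/thalamus averaged -0.93 ± 0.09 in Q175 and -0.67 ± 0.19 in WT mice (SD, n = 8 each, exact permutation p = 0.00544, adjusted p = 0.0816). The log2 of Nefh to Nefl in cerebellum averaged -1.14 ± 0.12 in Q175 and -1.0035 ± 0.0849 in WT mice (exact permutation p = 0.0168, adjusted p = 0.0839). In brainstem the same ratio averaged -1.22 ± 0.06 in Q175 and -1.24 ± 0.05 in WT mice. Leaving out 1 WT library brought ratios past the threshold: 4 without WT male 3 of cerebellum, 2 without WT female 1 of cerebellum and 2 without WT female 1 of hypothalamus/thalamus.

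In the peripheral tissues none of the 25 tested pairs passed with edgeR. An unadjusted p under 0.05 was found for 1, in heart, where 7.82% of all tested genes had one. DESeq2 called 1, Nefl in brown adipose, which had too few counts for the edgeR test. The share of all genes called was 0.0213% in gastrocnemius, 0.0549% in heart, 6.53% in skin, 5.41% in brown adipose, 32.1% in gonadal adipose and 0.0% in intestinal adipose. Nefl, the subunit measured in blood as a marker of axon damage, reached at most 0.503 FPKM in any peripheral library, and in skin it was at 0 counts in all 8 Q175 libraries and in 3 of 6 WT libraries. The filament genes of the motor and sensory axons in muscle and skin were near the limit of detection, with Prph at 4 to 14 counts in Q175 and 1 to 22 counts in WT gastrocnemius and 0 to 7 counts in Q175 and 2 to 10 counts in WT skin. A count of 0 limits only what this depth could show.

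Uchl1 and Stmn2 were the members with enough counts for the test in all 6 peripheral tissues. Uchl1 in heart had 3.48, 4.61 and 5.63 FPKM in Q175 and 3.31, 3.67 and 4.44 FPKM in WT libraries (0.22 ± 0.09, unadjusted p = 0.0238, adjusted p = 0.545, edgeR), and in gastrocnemius 1.03, 2.50 and 3.03 FPKM in Q175 and 1.19, 2.56 and 4.004 FPKM in WT libraries. Stmn2 ranged from 0.768 to 1.34 FPKM in Q175 and 0.826 to 1.43 FPKM in WT brown adipose, from 2.31 to 5.02 FPKM in Q175 and 2.06 to 4.55 FPKM in WT gonadal adipose, and from 6.88 to 10.9 FPKM in Q175 and 5.93 to 15.4 FPKM in WT intestinal adipose. The Stmn2 ranges overlapped in each depot and the gene did not pass (edgeR adjusted p = 0.743, 0.633 and 0.820 in the same order). The pan-neuronal Snap25 did not accompany it: in intestinal adipose Snap25 was at 0.128, 0.257 and 0.438 FPKM in Q175 and 0.079, 0.239 and 2.18 FPKM in WT libraries.

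Nefh in intestinal adipose stood apart from the other filament genes. It had 0.0434, 1.62 and 3.07 FPKM in Q175 and 0.0741, 1.09 and 1.74 FPKM in WT libraries (0.65 ± 0.64, edgeR adjusted p = 0.687), while Nefl never exceeded 0.169 FPKM there. The libraries lowest in Nefh were also the lowest in Syt1: Q175 male 2 (0.0434 and 0.0313 FPKM), WT female 3 (0.0741 and 0.0613 FPKM) and WT male 4 (0.0785 and 0.264 FPKM). In the other libraries Nefh was 0.636 to 3.07 FPKM and Syt1 0.474 to 1.08 FPKM. These 3 libraries held the 3 highest sums of 7 adipocyte genes, 6556, 6928 and 5387 CPM, in a range of 1346 to 6556 CPM in Q175, against 1534 to 6928 CPM in WT libraries, and the part of the adipocyte share in the values was not tested.

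Prph in intestinal adipose had 0.238, 0.468 and 0.641 FPKM in Q175 and 0.254, 0.586 and 2.12 FPKM in WT libraries (-0.82 ± 0.41, edgeR adjusted p = 0.640). The highest value was that of WT female 2, which also had the highest Gap43 (1.34 FPKM) and Snap25 (2.18 FPKM) and held 14660 CPM of 11 pancreas and islet genes, against 0.328 to 47.9 CPM in Q175 libraries. WT male 1 held 3787 CPM of the same genes and had the lowest WT value of Prph (0.254 FPKM), with 0.2 FPKM of Gap43 and 0.190 FPKM of Snap25. The part of that tissue in the values was not tested. In gonadal adipose the library WT female 2, which is from another mouse than WT female 2 of intestinal adipose, was the highest for Nefl (0.503 FPKM), Nefm, Nefh, Ina, Gap43 (1.15 FPKM) and Snap25 (3.81 FPKM). Uchl1 in gonadal adipose had 2.67, 4.84 and 7.02 FPKM in Q175 and 1.82, 2.40 and 5.05 FPKM in WT libraries (0.49 ± 0.23, edgeR adjusted p = 0.116); it passed without WT female 2 (adjusted p = 0.0429) and on log2(FPKM + 1) with limma (0.53 ± 0.17, adjusted p = 0.0267). In brown adipose Uchl1 had 0.0871, 0.239 and 0.738 FPKM in Q175 and 0.217, 0.439 and 1.15 FPKM in WT libraries (-0.76 ± 0.40, edgeR adjusted p = 0.361), and Nefl had 0 to 2 counts in Q175 and 1 to 8 counts in WT libraries, too few for the test. The sum over skeletal muscle genes lay between 7.998 and 891 CPM in Q175 and between 25.8 and 17740 CPM in WT brown adipose, and their part in either value was not tested.

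The genotype difference was not shown to depend on sex. Of 74 tests of the interaction with edgeR none passed after adjustment, beside 0.231% of all genes in gonadal adipose and 0.0% in the other tissues, and 10 had an unadjusted p under 0.05; 4 of these were the neurofilament genes Nefl, Nefm, Nefh and Ina in hypothalamus/thalamus, where the difference was lower in males than in females by -0.45 ± 0.12 for Nefl (unadjusted p = 0.00176, adjusted p = 0.448). DESeq2 called 1 interaction, Syt1 in gonadal adipose (adjusted p = 0.0496, against 0.200 with edgeR). Syt1 there had 0.075 to 1.23 FPKM in Q175 males and 0.011 to 0.117 FPKM in WT males. In females it had 0.0044 to 0.275 FPKM in Q175 and 0 to 1.12 FPKM in WT libraries, with 1.12 FPKM in WT female 2 and 0.0805 FPKM in WT female 1. The Q175 males held 92.2 to 3392 CPM of epididymis and germ cell genes, against 2.42 to 12.5 CPM in WT males. Their part in the Syt1 values was not tested.

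Over all 173 libraries, the genes whose profile was most like the mean of Nefl, Nefm and Nefh on log2(FPKM + 0.1) were Clgn (Pearson r = 0.991), Ankrd34b, Scn1a, Scrt1 and Hecw1 (0.988 each), among 14915 genes with a mean of at least 0.5 FPKM. Scn1a encodes a voltage-gated sodium channel and Scrt1 a transcription factor of neurons. The genes most like Prph were Slc10a4 (0.918), Tacr3 (0.905), Ecel1 (0.904), Slc5a7 (0.902) and Arhgap36 (0.889); Slc5a7 is the choline transporter of cholinergic neurons and Tacr3 the receptor of neurokinin B. These values describe libraries that come from 16 animals and share tissues, with the brain libraries high and the peripheral ones low.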

How the data were processed

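PolyA RNA from frozen tissue of 16 mice was sequenced with standard Illumina libraries, and CASAVA 1.8.2 is named in the submitters' processing notes. The authors deposited estimated counts per gene, 16.6% of which are not whole, and FPKM per gene. Which aligner, counting tool, build and strand setting were used is not given in the sources used here. Library totals, 27978166 to 48018644, set the precision of low counts.

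Estimated counts were rounded and tested per tissue with edgeR 4.0.16 (TMM, filterByExpr, robust quasi-likelihood, sex as a covariate), in R 4.3.3, with Benjamini-Hochberg adjustment over all genes tested. The mean over the brain regions and its variation used limma 3.58.1 voom on 80 libraries, with a within-animal correlation of 0.0875. Levels and subunit ratios used exact permutation tests (scipy 1.17.1, Python 3.11.15) on log2 FPKM, with a pseudocount of 0.1 for levels. Figures were drawn with matplotlib 3.10.9. DESeq2 1.42.0, other scalings, filters, a length-trend correction, limma on log2(FPKM + 1), a replicate block and leaving out libraries were alternatives. The tests were checked on simulated counts. Nothing states that the mice were independent litters, so p-values measure the spread between these animals.

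Named genes are the 10 members, Htt, up to 3 called genes with the smallest p from each fixed list in a brain region, and the 5 genes most similar to the neurofilament mean and to Prph; Vamp1, Scn4b and Lmnb2 in cerebellum were named after their values were seen. The members and lists were chosen with earlier results of these data known. Some list genes are not reported here.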

Additional observations from a re-analysis of the deposited data

Results flagged for a closer look

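Among 148 groups of libraries, 1 gene in 1 tissue and genotype each, 21 had a library far from its group by Dixon's criterion; chance sets apart about 1 in 20 groups. In brainstem, Q175 male 1 was the highest Q175 library for Nefl (548.6 FPKM), Q175 female 3 the lowest Q175 library for Ina (94.81 FPKM) and Snap25 (1387 FPKM), and WT male 4 the lowest WT library for Ina (95.5 FPKM). In the same tissue WT female 3, whose values fell with transcript length, was the highest WT library for Stmn2 (260.3 FPKM, the others 197.5 to 222.8), Snap25 (1715 FPKM) and Uchl1 (645.3 FPKM). WT female 3 of hippocampus was the highest WT library for Nefl (145.3 FPKM). WT male 2 of hypothalamus/thalamus, another library whose values fell with length, was the highest WT library for Stmn2 (230.3 FPKM) and Uchl1 (721.7 FPKM). In corpus callosum Prph stood at 1.334 FPKM in Q175 male 4 and 1.318 FPKM in WT female 3.

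In the periphery, Syt1 stood at 0.7519 FPKM in Q175 male 3 of skin, Uchl1 at 0.7384 FPKM in Q175 male 4 of brown adipose, and Snap25 at 1.171 FPKM in Q175 female 2 of gonadal adipose. WT female 2 of gonadal adipose was far above the other WT libraries for Gap43 (1.154 FPKM), Snap25 (3.811 FPKM) and Syt1 (1.118 FPKM), and WT male 3 for Stmn2 (4.552 FPKM). In intestinal adipose WT female 2 was highest for Prph (2.117 FPKM) and WT female 3 for Stmn2 (15.38 FPKM).

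The genotype difference itself varied between the 5 brain regions for Syt1 (adjusted p = 0.003549, limma voom) and Snap25 (adjusted p = 0.04309, limma voom).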

How the results depend on the processing

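In cerebellum 4 members were called on log2(FPKM + 1) without a filter (not Ina, Gap43 and Uchl1), against 7, and 5 to 7 without 1 library. In hippocampus, with 1 member called, 3 were called with the length trend removed, 2 without the libraries falling with length, 2 with DESeq2 and 1 to 3 without 1 library. In hypothalamus/thalamus DESeq2 called 1 and leaving out 1 library 0 to 1. In brown adipose 1 member (Nefl, at 0 to 8 counts) was called without a filter (-2.72, adjusted p = 0.0289) and with DESeq2 (-2.99, adjusted p = 0.0179). In gonadal adipose 1 (Uchl1) was called with the length trend removed and on log2(FPKM + 1), log2(FPKM + 0.1) and log2(FPKM + 1) without a filter, and 0 to 1 without 1 library. The mean over regions called 1 to 3 members without 1 animal. The difference between regions passed for 5 without corpus callosum and for 1 to 7 without 1 animal. The shares of all genes under these settings are not given here. DESeq2 called 1 sex interaction. Subunit ratios ranged from 0 to 4 calls without 1 library, and neighbouring levels that differ from 35 to 42. The causes were not tested.

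Differences turned round as follows. In corpus callosum with the excitatory neuron sum as a term, Nefl was 0.26, Nefm 0.28, Ina 0.0323, Prph 0.0186, Gap43 0.16, Stmn2 0.10 and Uchl1 0.20. With the length trend removed Ina in hippocampus was 0.001351 and Gap43 in gonadal adipose 0.0566. Gap43 in skin was -0.0216, -0.0277 and -0.0216, Gap43 in gonadal adipose 0.0132, 0.22 and 0.0132 and Stmn2 in intestinal adipose 0.0566, 0.0662 and 0.0566 on log2(FPKM + 1), log2(FPKM + 0.1) and log2(FPKM + 1) without a filter, where Nefm in intestinal adipose was 0.004376. With library code as a term Stmn2 in brown adipose was 0.006384, Stmn2 in gonadal adipose -0.11 and Gap43 there 1.18. Without 1 library, signs varied for Nefl in brainstem (-0.0108 to 0.076), Gap43 (-0.19 to 0.36) and Uchl1 (-0.16 to 0.11) in skin, Gap43 (-0.26 to 0.78) and Syt1 (-0.21 to 2.32) in gonadal adipose, and Nefm (-0.41 to 0.23) and Stmn2 (-0.16 to 0.10) in intestinal adipose.

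Replicate numbers do not pair animals of the 2 genotypes, and in no tissue was every pair's correlation over 0.1. With the replicate block 6 members were called in cerebellum (Nefl adjusted p = 0.0563), the difference between regions passed for 3, and Gap43 in gonadal adipose was 0.47. In the periphery 35 of 60 gene and tissue pairs had too few counts for the test.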
